A study of Mus musculus with 16 samples.

Results

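DNA replication and repair genes encode the proteins that copy the genome before a cell divides and that mend its strands when they are damaged. A set of 45 such genes was followed in fat-resident T cells by symbol, 18 with roles in replication and 27 with roles in repair. All 45 were found among the 19540 genes of the table, and all 45 passed the filter on low values that 14319 genes passed. The RNA came from sorted T cells of visceral fat (VAT) of 12-week-old C57BL/6JRcc mice: regulatory T cells (Treg), the Foxp3-positive CD4 T cells that hold back immune responses, and conventional T cells (Tconv). The animals carried floxed Hpgd and the Foxp3-YFP-Cre allele, so that the gene is deleted in Foxp3-expressing cells, or were wild type (WT) controls. Hpgd encodes the dehydrogenase that inactivates prostaglandin E2. The groups were Treg from animals with the deletion (Treg KO, 4 libraries), Treg from WT animals (Treg WT, 3), Tconv from animals with the deletion (Tconv KO, 5) and Tconv from WT animals (Tconv WT, 4). Tconv do not express Foxp3, so Tconv KO are cells from an animal whose Treg lack Hpgd and are not themselves the target of the Cre. The line is given identically for all 16 libraries, so the genotype rests on the sample titles.

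Replication begins when Cdc6 and Cdt1 load the Mcm2 to Mcm7 ring, the replicative helicase, onto origins, and continues when Cdc45 joins it as it opens the double helix. The clamp Pcna, set on DNA by the clamp loader Rfc1 to Rfc5, holds the polymerases on their template. Many of these genes are transcribed as a cell enters S phase, under E2F transcription factors, so their RNA is commonly read beside markers of cycling cells. Repair genes divide by the lesion they treat: homologous recombination and end joining mend broken double strands, and glycosylases, mismatch and nucleotide excision proteins replace damaged bases or stretches of a strand.

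The promoter windows of the genes were searched for the E2F core motif, on either strand and with overlapping matches counted. The first spelling searched was TTCCCGC, the second spelling was TTGGCGC, the third spelling was TTCGCGC and the fourth spelling was TTGCCGC. The windows ran from 250 bases before to 50 bases after the annotated start (RefSeq, GRCm38.p6), and 40 of the 45 genes had one; Mcm4, Rfc2, Xpc, Fancd2 and Top3a did not. The motif was present in 25 of the 40 (62.5%), against 2935 of the 27018 genes with a window (10.9%). It was found in 12 of 16 replication genes (75%) and in 13 of 24 repair genes (54.2%). The following windows are shown because the first belongs to the helicase gene with the most matches, the next to a clamp loader gene whose RNA differed between Treg and Tconv in animals with the deletion and did not pass in WT, and the last, with no match, to the topoisomerase gene whose RNA stood apart in Treg WT. They are Mcm6 at chr1:128359656-128359955 on the minus strand, Rfc3 at chr5:151651159-151651458 on the minus strand and Top3b at chr16:16870486-16870785 on the plus strand, each 5′ to 3′ with the motif in capitals.
Mcm6: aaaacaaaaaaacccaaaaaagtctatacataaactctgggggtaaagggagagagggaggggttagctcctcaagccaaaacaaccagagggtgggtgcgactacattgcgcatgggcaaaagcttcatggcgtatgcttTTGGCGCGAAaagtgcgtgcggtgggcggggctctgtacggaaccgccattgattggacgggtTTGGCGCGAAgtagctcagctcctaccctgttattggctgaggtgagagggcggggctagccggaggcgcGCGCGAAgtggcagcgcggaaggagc
Rfc3: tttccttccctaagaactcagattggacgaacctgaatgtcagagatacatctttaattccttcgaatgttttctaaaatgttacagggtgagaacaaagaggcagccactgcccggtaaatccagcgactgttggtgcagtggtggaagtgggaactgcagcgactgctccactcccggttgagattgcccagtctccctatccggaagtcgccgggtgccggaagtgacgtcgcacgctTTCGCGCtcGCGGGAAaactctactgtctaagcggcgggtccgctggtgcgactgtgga
Top3b: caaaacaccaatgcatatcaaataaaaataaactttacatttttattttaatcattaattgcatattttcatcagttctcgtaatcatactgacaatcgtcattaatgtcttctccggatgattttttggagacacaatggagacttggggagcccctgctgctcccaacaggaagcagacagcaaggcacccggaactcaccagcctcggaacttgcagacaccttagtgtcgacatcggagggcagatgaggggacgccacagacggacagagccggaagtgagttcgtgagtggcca
Mcm6 held 5 matches, partly overlapping on opposite strands, Rfc3 held 2 close to its start, and Top3b held none. A match describes the letters only and does not show that a factor binds there.

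Read depth was 3.39 to 9.26 M reads in 15 libraries and 56.7 M reads in Tconv KO 3. Genes without reads stand at a level of 1, and the level of 3 reads, taken as the floor, ran from 1.38 to 7.09. Floors and intervals for read ratios cover counting error only, since the reads carry no molecular identifiers. Hpgd, which checks the labels, had levels of 1.00 to 3.41 in Treg KO, against 73.1 and 56.0 in Treg WT 1 and 2 and, from 3 reads, 4.31 in the library labelled Treg WT 3. Foxp3 averaged 403 ± 120 in Treg KO, 407 ± 182 in Treg WT, 1.98 ± 1.73 in Tconv KO and 15.5 ± 18.4 in Tconv WT (SD). Tconv WT 1 stood apart by the list of neutrophil and mast cell genes, whose summed level was 14620. S100a8 and S100a9 carried that sum, with the mast cell gene Cpa3 at 10.3 or less in Tconv WT. Tconv WT 3 stood apart by the list of red cell and platelet genes, at 160109. Haemoglobin genes carried that sum, with the platelet gene Pf4 at 23.5 to 35.2 in Tconv WT. Which animal gave which library is not labelled, so p-values measure the spread between these libraries. In bulk samples such as these, fewer cells of a type and less RNA per cell cannot be told apart.

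Levels are normalised read counts as deposited, and differences are on the log2 scale of that count plus 1, which understates the change of low genes. Of the 45 genes, 34 had reads in all 16 libraries and 11 lacked reads in at least 1. The SD within groups, pooled over the 4 groups on the log2 scale, had a median of 0.85 for the set and 0.77 for all genes tested. It was smallest for Mcm4, at 0.27, and reached 2.78 for Mutyh, the glycosylase that removes adenine paired with oxidised guanine. Cdc6 had reads in 9 libraries, Cdc45 in 10, Lig4 (the ligase of end joining) in 11, Brca1 in 12, and Rfc4 and Mutyh in 13. The median level of the 45 genes lay between 121 and 227 in every library.

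**Figure D1:**
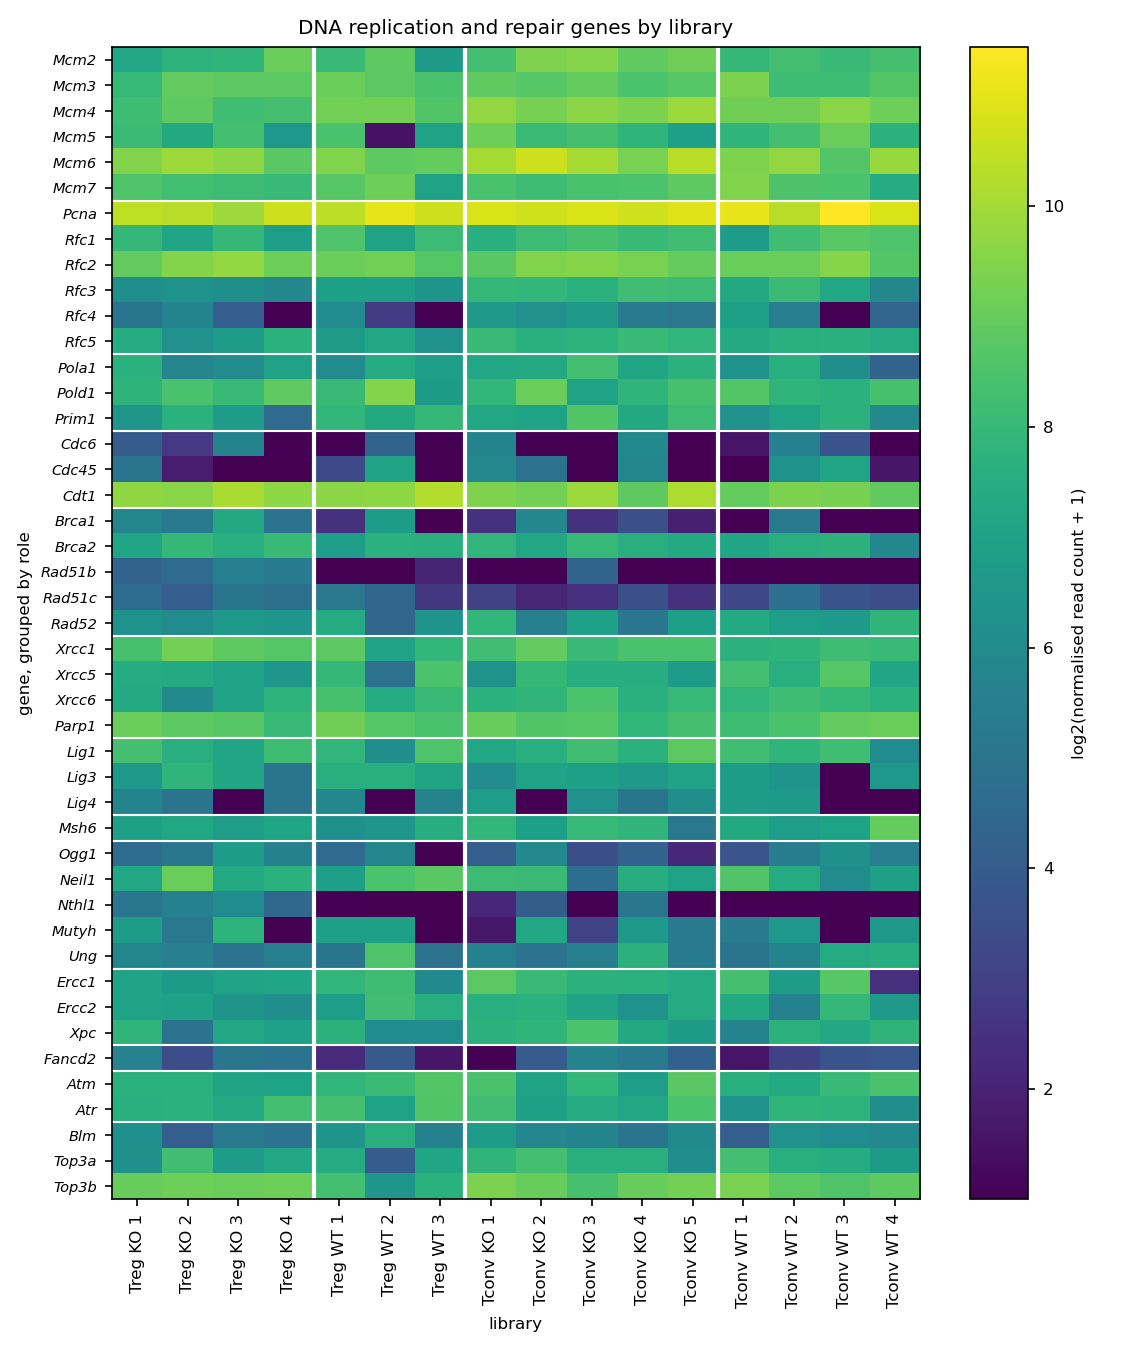
Level of the 45 genes (rows, grouped by role) in each of the 16 libraries (columns, grouped as Treg KO, Treg WT, Tconv KO and Tconv WT), as the log2 of the normalised read count plus 1. Dark cells are genes with few or no reads; Rad51b and Nthl1 are lit in all 4 Treg KO libraries and dark or nearly so in all 3 Treg WT libraries.

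Treg and Tconv were compared first within the deletion genotype. In Treg KO, the helicase subunit Mcm4 and the clamp loader subunit Rfc3 were lower than in Tconv KO, and the recombination gene Rad51b was higher. These 3 of 45 genes passed at an adjusted p under 0.05 (limma with Benjamini-Hochberg adjustment over all genes, here and below), 1 higher and 2 lower. Over all genes tested 6.81% passed, 4.16% higher and 2.65% lower. Without adjustment 4 members were higher and 8 lower at p under 0.05, against a background of 10.2% higher and 8.49% lower (18.7% in all). The median log2 difference was −0.15 over the 45 genes and 0.04 over all genes.

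Mcm4, at chr16:15623897-15637400 on the minus strand (mm10), is one of the 6 ring subunits. Its level was 296, 465, 305 and 332 in the Treg KO libraries, against 860, 635, 792, 675 and 932 in the Tconv KO libraries. Every Treg KO library was below every Tconv KO library. The log2 difference was −1.16 (SE 0.22, adjusted p = 0.00204), and it passed under all 26 alternatives.

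Rfc3, at chr5:151642756-151651242 on the minus strand, had levels of 73.3, 79.4, 73.2 and 58.4 in Treg KO, against 250, 237, 202, 302 and 285 in Tconv KO. The groups again did not overlap, and the Treg KO libraries were close to each other. The log2 difference was −1.83 (SE 0.40, adjusted p = 0.00689), past the threshold under all 26 alternatives.

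Rad51b, at chr12:79297282-79814690 on the plus strand, acts in the repair of broken ends by homologous recombination. It stood at 19.1, 24.0, 44.9 and 37.0 in Treg KO, from 15, 15, 31 and 37 reads. In Tconv KO it was listed at 1 in 4 libraries and at 19.9, from 149 reads, in Tconv KO 3, the library sequenced most deeply. That library lay inside the range of the Treg KO libraries, so the groups overlapped. The log2 difference was 3.26 (SE 0.73, adjusted p = 0.00801). Leaving out Tconv KO 3 together with Tconv WT 1 and Tconv WT 3, chosen after seeing the data, made it 3.94 (adjusted p = 0.000909). Tconv KO 3 was the only Tconv KO library with reads of Rad51b. Leaving it out could therefore only widen the difference, and the larger value adds no support. Rad51b passed in the 25 alternatives that tested it, and the filter at 50 left it out. It reached the filter value of 10 only in Treg KO and in Tconv KO 3, so it met the filter through the group where it was high.

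**Figure D2:**
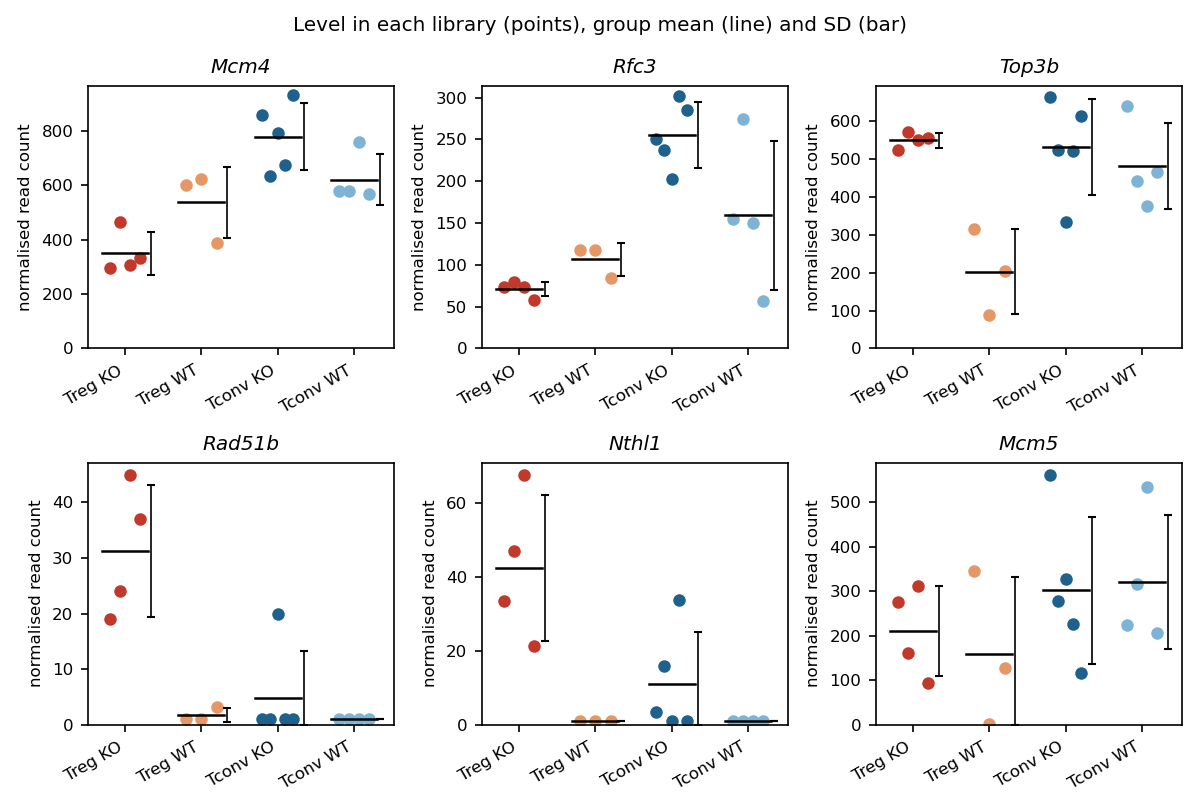
Normalised read count of 6 genes in each library (points), with the group mean (line) and SD (bar beside the points, cut at 0), for Treg KO, Treg WT, Tconv KO and Tconv WT. Mcm4 and Rfc3 are lower in every Treg KO than in every Tconv KO library, Top3b is lowest in Treg WT, and Rad51b and Nthl1 are near 1 outside Treg KO in most libraries.

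Nthl1, at chr17:24632680-24638837 on the plus strand, encodes a glycosylase for oxidised pyrimidines and fell short of the threshold. Its levels were 33.5, 47.1, 67.6 and 21.4 in Treg KO, against 3.43, 15.8, 1.00, 33.7 and 1.00 in Tconv KO. Outside Treg KO, Nthl1 reached the filter value of 10 only in Tconv KO 2 and Tconv KO 4, so it too met the filter through Treg KO. The groups overlapped through Tconv KO 4, and the adjusted p of Nthl1 was 0.0539 at a log2 difference of 2.65. It passed with a pseudocount of 5, with limma-voom, and without Tconv KO 2 or Tconv KO 4, and Mcm2 (−1.11) passed without Treg KO 4. Among the members that did not pass, Rad51c (1.97), Pcna (−0.47) and Ercc1 (−0.95), a nuclease subunit of nucleotide excision repair, had Treg KO and Tconv KO libraries that did not overlap. In all, 1 member was higher and 4 were lower without overlap in Treg KO, and 6% and 4.66% of all genes were.

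The same contrast in WT animals gave 1 member of 45, Top3b, at a background of 4.18%; lower calls made up 1.98% of all genes and higher calls 2.2%. Top3b, at chr16:16870736-16892990 on the plus strand, encodes a topoisomerase that acts on single strands of DNA and of RNA. Its level was 315 and 89.1 in Treg WT 1 and 2 and 204 in the library labelled Treg WT 3, against 642, 443, 377 and 466 in Tconv WT. All 3 Treg WT libraries were below all 4 Tconv WT libraries. The log2 difference was −1.40 (SE 0.35, adjusted p = 0.0257). Leaving out single libraries ended this call: it was −0.90 (adjusted p = 0.128) without Treg WT 2 and −1.49 (0.0572) without the library labelled Treg WT 3. Without Tconv WT 1, 2 or 4 the difference was −1.25 (0.0742), −1.43 (0.0504) and −1.40 (0.0540). The call was also lost with limma-voom on the recovered reads (adjusted p = 0.114) and when the fit held these 2 groups alone (0.218), and over all alternatives the adjusted p ran from 0.00668 to 0.218. An exon of Top3b shares 108 bases with Vpreb1, whose reads cannot be told apart without strand.

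No member was higher in Treg WT at the threshold; 2 were at an unadjusted p under 0.05, against 8.33% of all genes. The 3 smallest p-values in that direction were those of the licensing factor Cdt1 (0.70, SE 0.29, adjusted p = 0.207), the ligase Lig3, which works beside Xrcc1 (2.202, SE 1.02, adjusted p = 0.284), and the damage kinase Atr (0.99, SE 0.52, adjusted p = 0.357). Cdt1 read 785 and 814 in Treg WT 1 and 2 and 1215 in the library labelled Treg WT 3, against 497, 673, 637 and 477 in Tconv WT, with no overlap. Lig3 was at 137 to 185 in Treg WT, against 84.2 to 109 in 3 Tconv WT libraries and no reads in Tconv WT 3. When Tconv KO 3, Tconv WT 1 and Tconv WT 3 were left out its log2 difference was 0.90. Rfc5 was the other member without overlap, at 76.0 to 154 in Treg WT and 168 to 195 in Tconv WT (−0.75). Together 2 members were higher and 2 lower without overlap, in a background of 5.87% and 6.1%.

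By role, most genes of the helicase and of the clamp with its loader had a lower mean in Treg than in Tconv in both genotypes. The 2 roles were joined after their values were seen, and no test was run on them. In Treg KO against Tconv KO, 11 of these 12 genes had a negative log2 difference, Rfc2 (0.11) being the exception, and in Treg WT against Tconv WT 11 of 12 did, with Mcm3 (0.17) the exception. Thus 10 of 12 (83.3%) were lower in Treg in both genotypes and none was higher in both, where 31.2% of all genes were lower in both and 33.1% higher in both. The 2 comparisons share no library. The number lower ran from 10 to 12 within the KO genotype and from 8 to 11 within WT over the 26 alternatives, quantile scaling among them. Many of these alternatives could not change the number. Leaving out a library of the other genotype, changing the filter or fitting only the groups compared left the log2 differences of these genes as they were. Within WT no member of either role passed: Mcm5, which read 345 and 1.87 in Treg WT 1 and 2 and 129 in the library labelled Treg WT 3, against 207 to 534 in Tconv WT, had the largest difference (−2.56). Its level in Treg WT 2 came from 1 read, and it passed when Treg WT 1 was left out.

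The polymerase, primase and origin genes of the set did not lean this way. Of 3 polymerase and primase genes 0 were lower in Treg in both genotypes, and of 3 origin genes 1 was, against 31.2% of all genes. The licensing gene Cdt1 was higher in both (0.27 in KO, 0.70 in WT). The primase subunit Prim1 was at 24.4 to 202 in Treg KO and 133 to 390 in Tconv KO (−1.29), while in WT it was at 162 to 250 in Treg and 59.5 to 210 in Tconv (1.01). Pola1, the catalytic subunit of polymerase alpha, likewise had a difference of −0.93 within KO and 0.65 within WT, and Pold1, that of polymerase delta, 0.25 within KO and −0.05 within WT. Cdc6 (0.43 in KO, −0.86 in WT) and Cdc45 (−1.53 in KO, −0.23 in WT) lacked reads in many libraries, spread widely within groups and did not pass. Cdc45 ran from 1 to 129 in Treg WT and from 1 to 140 in Tconv WT, and Cdc6 from 1 to 62.4 in Tconv KO.

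**Figure D3:**
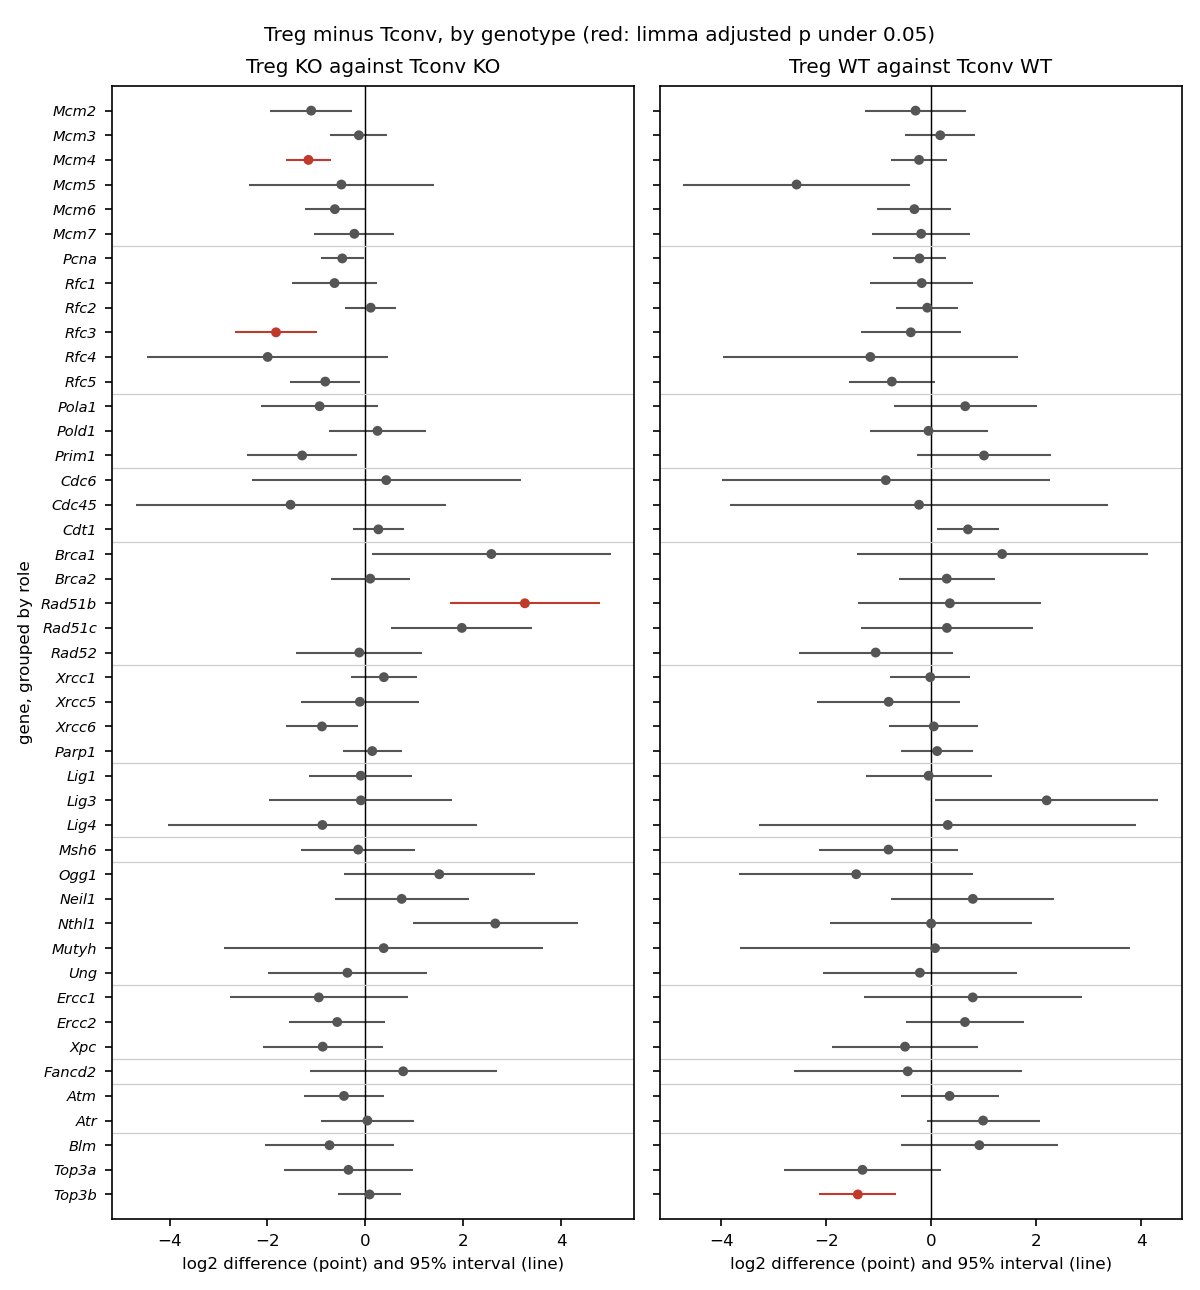
Log2 difference between Treg and Tconv for each gene (rows, grouped by role) with its 95% interval (line), in animals with the deletion (left) and in WT animals (right); red marks an adjusted p under 0.05. The 12 helicase, clamp and loader genes at the top lie mostly left of 0 in both panels, and intervals are wide for genes with few reads.

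The repair genes were spread to both sides. In Treg KO against Tconv KO 13 of 27 had a positive difference (52.3% of all genes), and in Treg WT against Tconv WT 15 of 27 did (49.5% of all genes); Nthl1, with no reads in either WT group, had a difference of 0. Of the 5 homologous recombination genes 4 were positive in both genotypes, where 33.1% of all genes were. They were Brca1 (2.57 in KO, 1.35 in WT), Brca2 (0.10 in KO, 0.30 in WT), Rad51b (3.26 in KO, 0.36 in WT) and Rad51c (1.97 in KO, 0.30 in WT). The strand annealing gene Rad52 was negative in both (−0.12 in KO, −1.06 in WT). Of 36 other homologous recombination and crosslink genes, 6 (16.7%) were positive and 10 (27.8%) negative in both, so those genes did not share this direction. In WT, Rad51b rests on 2 reads in the library labelled Treg WT 3 and none in Tconv WT. Brca1 was uneven: it read 54.0, 37.9, 155 and 30.2 in Treg KO, 4.65, 107 and 1.00 in Treg WT, 2.78 to 55.5 in Tconv KO, and 37.5 in Tconv WT 2 with no reads in the other Tconv WT libraries. The Ku subunit gene Xrcc6 had a difference of −0.89 in KO and 0.05 in WT, its partner Xrcc5 −0.11 in KO and −0.81 in WT, and the break sensor Parp1 0.14 in KO and 0.11 in WT. Lig1, the ligase of the lagging strand, differed by −0.09 in KO and −0.05 in WT, and the mismatch recognition gene Msh6 by −0.15 in KO and −0.81 in WT. The damage kinase Atm differed by −0.44 in KO and 0.35 in WT, and the damage recognition gene Xpc by −0.87 in KO and −0.50 in WT.

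The genes around the set were read from the same fit. Of 48 other replication genes, 3 were lower in Treg KO than in Tconv KO and none higher, and 2 were lower in Treg WT than in Tconv WT and none higher. Of all genes, 2.65% were lower and 4.16% higher in KO, and 1.98% lower and 2.2% higher in WT. Rpa2, a subunit of the complex that coats single-stranded DNA, was lower in both, at 277 ± 45.6 in Treg KO against 1288 ± 466 in Tconv KO (log2 difference −2.13, adjusted p = 0.000323) and at 346 ± 213 in Treg WT against 871 ± 183 in Tconv WT (−1.47, adjusted p = 0.0285). The origin-firing kinase gene Cdc7 (−2.03, adjusted p = 0.00717) and the origin recognition gene Orc6 (−1.37, adjusted p = 0.0238) were lower in Treg KO, and Gins2, a partner of Cdc45, was lower in Treg WT (−4.89, adjusted p = 0.0112). The size of the Gins2 difference rests on 2 Treg WT libraries without reads. It stood at 161 in the remaining Treg WT library, against 164 to 336 in Tconv WT. In sign, 30 of the 48 (62.5%) were lower in Treg in both genotypes, against 31.2% of all genes. Their summed level was 8356 to 9392 in Treg KO against 11628 to 12529 in Tconv KO, and 9596 to 9805 in Treg WT against 10979 to 14015 in Tconv WT, without overlap in either genotype. Genes with the most reads weigh most in these sums, which include Rpa2.

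Among 24 other damage signalling genes, the cyclin-dependent kinase inhibitor Cdkn1a and the stress-induced Gadd45b were higher in Treg KO than in Tconv KO. The background for this and the next lists was 4.16% of all genes higher and 2.65% lower in KO. In WT it was 2.2% higher and 1.98% lower. Cdkn1a averaged 6910 ± 1157 in Treg KO against 1628 ± 833 in Tconv KO (2.19, adjusted p = 0.000391), and Gadd45b 5161 ± 1517 in Treg KO against 1306 ± 760 in Tconv KO (2.08, adjusted p = 0.00095). Gadd45b was also higher in Treg WT than in Tconv WT (1.62, adjusted p = 0.0267). Of 17 other nucleotide excision genes Cetn2, a partner of Xpc, was higher in Treg KO than in Tconv KO (1.53, adjusted p = 0.00228), and none passed in WT, where Cetn2 had the smallest p (0.83, adjusted p = 0.205). Of 11 nucleotide supply genes Samhd1, which degrades deoxynucleotides, was higher in Treg KO than in Tconv KO (0.63, adjusted p = 0.00999). No gene passed in either comparison among 36 other homologous recombination and crosslink genes (smallest adjusted p 0.201 for Mus81 in KO and 0.299 for Fancc in WT), 10 other end joining genes (0.0593 for Dclre1c and 0.0544 for Poll) and 20 other mismatch and base excision genes (0.177 for Msh3 and 0.147 for Pms1). Exons of Gins2, Orc6 and Cdkn1a overlap another annotated gene.

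Markers of cycling and of other cell types were set beside these differences. Of 25 proliferation markers none passed, with the smallest adjusted p for Top2a in KO (−1.34, 0.118) and for Foxm1 in WT (−4.20, 0.0925); 11 of 25 (44%) were lower in Treg in both genotypes, against 31.2% of all genes, and 2 (8%) were higher in both, against 33.1% of all genes. Their summed level was 848 to 1354 in Treg KO against 1115 to 1874 in Tconv KO, and 376 to 923 in Treg WT against 1053 to 1447 in Tconv WT. The 5 markers of CD8 T and NK cells summed to 285 to 2020 in Treg KO against 8434 to 16844 in Tconv KO, and to 415 to 3151 in Treg WT against 6912 to 10932 in Tconv WT. Nkg7 carried most of that sum, while Cd8a averaged 14.1 in Treg KO, 27.4 in Treg WT, 87.6 in Tconv KO and 3.42 in Tconv WT, and Ncr1 averaged 3.18 in Treg KO and 19.4 in Tconv WT, with no reads in any Treg WT or Tconv KO library. Klrb1c averaged 1.35 in Treg KO against 39.3 in Tconv KO, and 1.29 in Treg WT against 122 in Tconv WT, where values start at 1 for no reads. Cd8b1 averaged 79.0 in Treg KO against 127 in Tconv KO, and 89.4 in Treg WT against 94.2 in Tconv WT. The 6 T cell markers summed to 24401 to 31264 in Treg KO against 31562 to 41805 in Tconv KO, and to 23103 to 28163 in Treg WT against 31277 to 35604 in Tconv WT. The 6 stromal and endothelial markers summed to 169 to 467 in Treg KO and 448 to 1156 in Tconv KO. In WT they summed to 157 to 312 in Treg and 310 to 664 in Tconv. Pecam1 carried most of that sum, averaging 256 in Treg KO, 669 in Tconv KO, 216 in Treg WT and 449 in Tconv WT. The other markers of the list averaged 1.16 to 22.7 in each group. In KO, Pdgfra, Col1a1, Col3a1 and Cdh5 had higher means in Treg, and Dcn a lower one. In WT, Col3a1 had a higher mean in Treg and the rest lower ones. The part of these markers in the differences between Treg and Tconv was not tested.

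**Figure D4:**
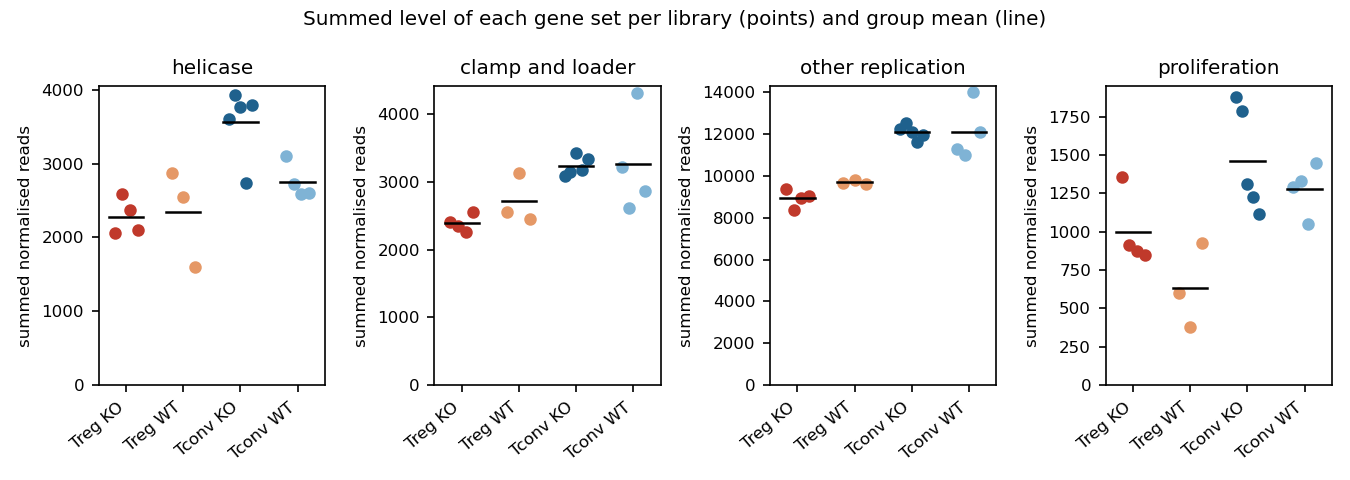
Summed normalised read count of 4 gene sets in each library (points), with the group mean (line), in Treg KO, Treg WT, Tconv KO and Tconv WT. The 6 helicase genes sum to 2065 to 2595 in Treg KO and 2743 to 3936 in Tconv KO, and the 6 clamp and loader genes to 2258 to 2556 in Treg KO and 3089 to 3428 in Tconv KO.

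The summed level of the helicase genes did not overlap between Treg KO (2065 to 2595) and Tconv KO (2743 to 3936), nor did that of the clamp and its loader (2258 to 2556 in Treg KO, 3089 to 3428 in Tconv KO). In WT both sums overlapped, at 1598 to 2873 in Treg WT and 2596 to 3106 in Tconv WT for the helicase and at 2456 to 3125 in Treg WT and 2620 to 4312 in Tconv WT for the clamp and loader. Such sums are carried by the genes with the most reads, Pcna among the second.

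The deletion was compared in Treg next, with the same Treg KO and Treg WT libraries that entered the comparisons with Tconv. None of the 45 genes passed between Treg KO and Treg WT, where 0.021% of all genes (3 of 14319) did. At an unadjusted p under 0.05, 5 members were higher and 3 lower, against 4.1% and 2.12% of all genes (6.22% together). With limma-voom on the recovered reads 0 members passed as well. A positive difference was found for 24 of 45 (55.6% of all genes), and the median was 0.10 over the set and 0.08 over all genes. The number with positive differences was 8 of 18 for the replication genes and 16 of 27 for the repair genes.

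Nthl1, Rad51b and Top3b, all repair genes, led the differences by p-value, and each was higher in Treg KO with no overlap between the groups. Nthl1 and Rad51b had met the filter on low values through Treg KO, so their place in this comparison depended on that group. Nthl1 had 27, 30, 47 and 21 reads in the Treg KO libraries and none in Treg WT, at a floor of 3.89 averaged over the Treg WT libraries, so it was at least 10.9-fold higher. Its fitted log2 difference was 4.32 (SE 0.92, adjusted p = 0.328 in limma). Rad51b had 98 reads in Treg KO and 2 in Treg WT, both in the library labelled Treg WT 3. The read ratio scaled for depth was 48.0 (95% interval 12.9 to 402). Its fitted log2 difference was 3.58 (SE 0.83, adjusted p = 0.522 in limma). That read interval and the bound for Nthl1 cover counting error only and leave out the spread between libraries. Top3b read 524 to 571 in Treg KO and 89.1 to 315 in Treg WT (1.61, SE 0.35, adjusted p = 0.328 in limma). Without Treg WT 1 the difference of Top3b was 2.02 and passed, at an adjusted p of 0.0376. Without the library labelled Treg WT 3 the adjusted p-values were 0.541 for Nthl1, 0.541 for Rad51b and 0.418 for Top3b. Setting Nthl1 at its bound leaves the median of the set as given, since it lies above it either way.

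On the lower side the smallest p-values belonged to Mcm4 (−0.61, SE 0.25, adjusted p = 0.741), Xrcc6 (−0.94, SE 0.40, adjusted p = 0.758) and Prim1 (−1.34, SE 0.61, adjusted p = 0.789). Mcm4 read 296 to 465 in Treg KO, against 601 and 621 in Treg WT 1 and 2 and 388 in the library labelled Treg WT 3, which lay inside the Treg KO range. Xrcc6 was at 62.5 to 216 in Treg KO and 171 to 340 in Treg WT, and Prim1 at 24.4 to 202 in Treg KO and 162 to 250 in Treg WT. The kinase gene Atm (131 to 205 in Treg KO, 232 to 399 in Treg WT) and Rfc3 (58.4 to 79.4 in Treg KO, 83.7 to 118 in Treg WT) were lower without overlap, at differences of −0.84 and −0.57 that did not pass. In sum 3 members were higher and 2 lower without overlap, against 3.35% and 2.66% of all genes (6.01% together).

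Other genes with an unadjusted p under 0.05 in Treg were Xrcc1 (0.89), the scaffold of single-strand break repair, and Fancd2 (2.21), of crosslink repair, both higher. Xrcc1 read 336 to 605 in Treg KO and 128 to 444 in Treg WT, and Fancd2 10.2 to 49.2 in Treg KO and 2.10 to 14.1 in Treg WT. All 5 homologous recombination genes had positive differences, as did 55.6% of all genes. They ran from 0.26 for Rad52 to 3.58 for Rad51b, with Brca1 at 2.41, Rad51c at 0.58 and Brca2 at 0.34. The glycosylases were at 1.73 for Ogg1, 0.22 for Mutyh, −0.18 for Neil1 and −0.74 for the uracil glycosylase Ung besides Nthl1. The helicase Blm was at −1.40 and its partner Top3a at 0.93. Of the helicase ring, Mcm2, Mcm3, Mcm6 and Mcm7 differed by 0.10, −0.16, 0.36 and −0.03, and Mcm5, with 1 read in Treg WT 2, by 1.92. Pcna differed by −0.36.

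None of the 191 surrounding genes passed in Treg KO against Treg WT. The smallest p was that of Gins2 (4.14, adjusted p = 0.607) among other replication genes, Poll (2.81, 0.700) for end joining, Polh (3.295, 0.741) for damage signalling, Mpg (2.55, 0.741) for mismatch and base excision, Ddb1 (0.58, 0.794) for nucleotide excision, Slx4 (−1.22, 0.802) for recombination and crosslinks, and Foxm1 (3.48, 0.741) for proliferation. The Gins2 difference rests on the 2 Treg WT libraries without its reads. Proliferation markers were positive for 17 of 25, and their sums overlapped, at 848 to 1354 in Treg KO and 376 to 923 in Treg WT. Their part in the result was not tested.

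**Figure D5:**
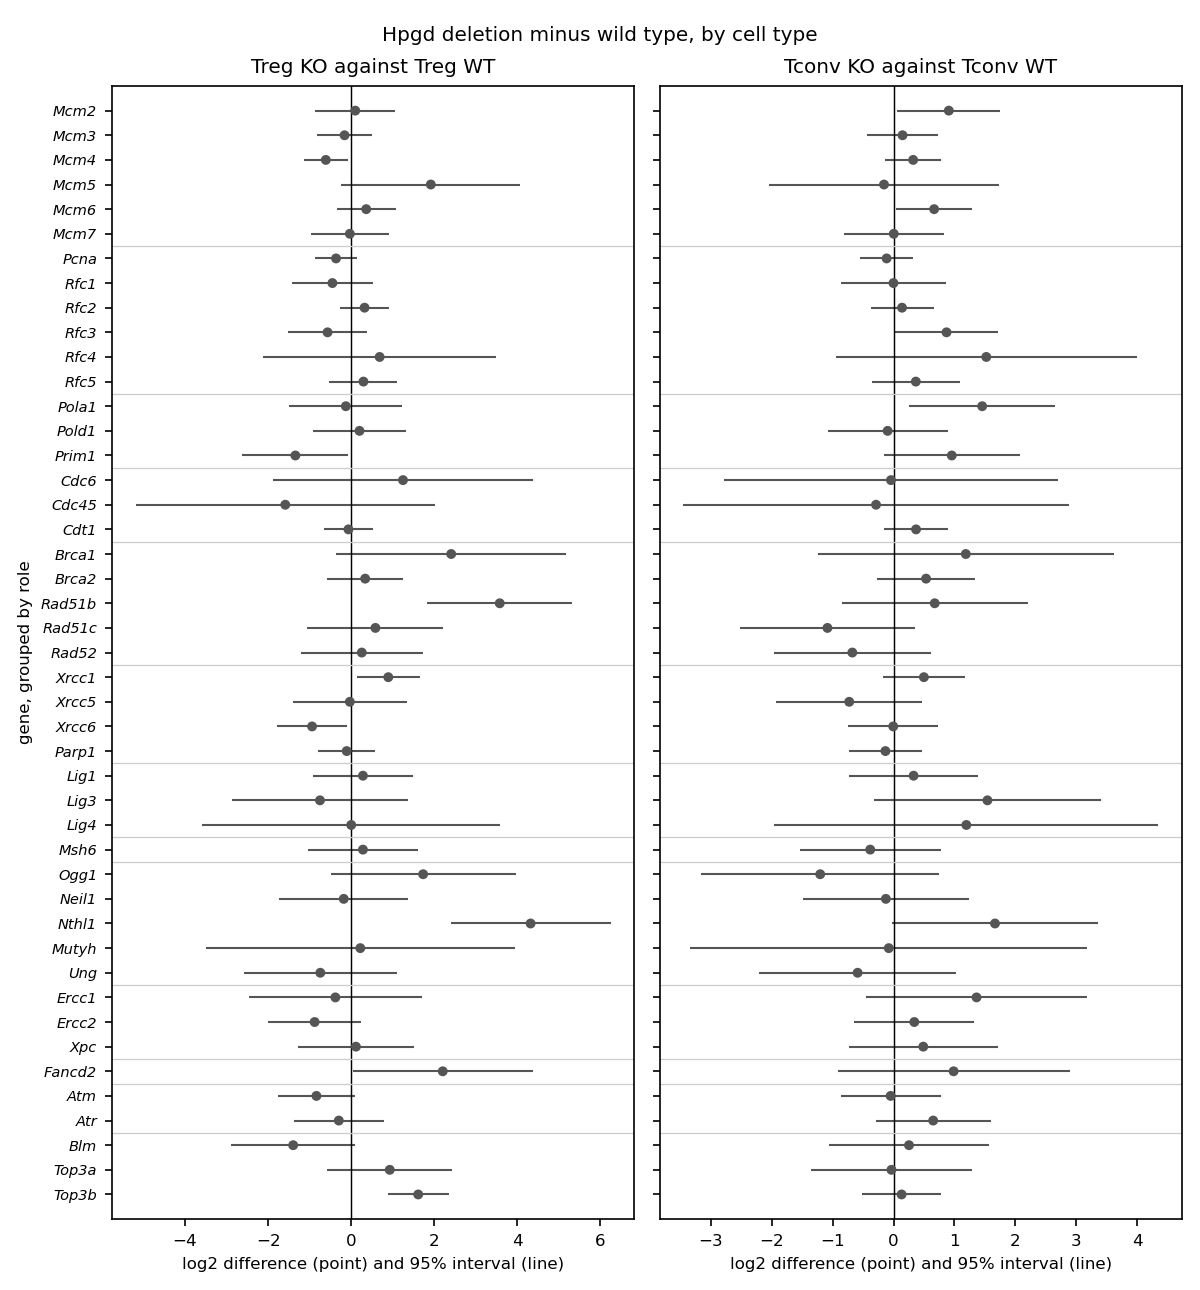
Log2 difference between deletion and WT for each gene (rows, grouped by role) with its 95% interval (line), in Treg (left) and in Tconv (right). No gene passes the adjusted threshold; Nthl1, Rad51b and Top3b lie farthest from 0 relative to their interval in Treg.

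In Tconv from the same genotypes no member passed, nor did any of the 14319 genes (0%) by limma or by limma-voom; 4 members were higher and 0 lower at an unadjusted p under 0.05, against 3.04% and 2.42% of all genes (5.45% together). The 4 were replication genes: Pola1 (1.46, SE 0.57, adjusted p = 0.858), Mcm2 (0.91, SE 0.40, adjusted p = 0.897), Mcm6 (0.67, SE 0.30, adjusted p = 0.897) and Rfc3 (0.87). Pola1 read 152, 168, 322, 140 and 204 in Tconv KO, against 78.5, 188, 73.5 and 19.0 in Tconv WT. Mcm2 read 318, 695, 738, 480 and 579 in Tconv KO, against 246, 320, 260 and 331 in Tconv WT. In both genes 1 library kept the groups from separating, Tconv WT 2 for Pola1 and Tconv KO 1 for Mcm2. Mcm6 spread more widely, at 649 to 1619 in Tconv KO and 400 to 924 in Tconv WT, and with Tconv KO 3, Tconv WT 1 and Tconv WT 3 left out its difference was 0.29 and that of Mcm2 0.61.

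On the lower side, the smallest p-values in Tconv were those of Rad51c (−1.09, SE 0.69, adjusted p = 0.950), the glycosylase Ogg1 for oxidised guanine (−1.20, SE 0.93, adjusted p = 0.957) and Xrcc5 (−0.73, SE 0.57, adjusted p = 0.957). Rad51c rested on 3 to 27 reads in Tconv KO libraries and 7 to 13 in Tconv WT. Without those 3 libraries the difference of Xrcc5 was −0.24. No member had groups without overlap in Tconv, where 1.67% of all genes did, 0.866% higher and 0.803% lower. Positive differences numbered 27 of 45 (51.6% of all genes), with a median of 0.25 over the set and 0.02 over all genes. Of the 12 helicase, clamp and loader genes 9 were positive.

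None of the surrounding genes passed in Tconv either. The smallest p in each list belonged to Chaf1b (1.89, adjusted p = 0.824) in replication, Gtf2h1 (0.70, 0.858) in nucleotide excision, Msh3 (1.00, 0.858) in mismatch and base excision, Fancg (3.08, 0.858) in recombination and crosslinks, Aurkb (−2.32, 0.887) in proliferation, Polq (−1.99, 0.897) in end joining, Gadd45a (−0.999, 0.900) in damage signalling and Tyms (0.85, 0.928) in nucleotide supply. The proliferation sums were 1115 to 1874 in Tconv KO and 1053 to 1447 in Tconv WT.

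Whether the deletion moved a gene differently in Treg and in Tconv was tested as the difference between the 2 effects. No member and no gene passed by limma or by limma-voom (0% of 14319; 5.22% at an unadjusted p under 0.05). Of the members, 3 were positive and 3 negative at an unadjusted p under 0.05, and 18 of 45 were positive in all (53.3% of all genes). The positive ones were Top3b (1.48, SE 0.47), Rad51b (2.90, SE 1.11) and Nthl1 (2.65, SE 1.22). The negative ones were Prim1 (−2.30, SE 0.81), Mcm4 (−0.93, SE 0.34) and Rfc3 (−1.44, SE 0.61). All 6 had an adjusted p of 0.928, and over the alternatives none fell below 0.220.

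Mcm4 and Rfc3 show how the group values combine. The mean level of Mcm4 was 350 ± 78.4 in Treg KO, 537 ± 129 in Treg WT, 779 ± 124 in Tconv KO and 621 ± 92.7 in Tconv WT, and that of Rfc3 was 71.1 ± 8.92 in Treg KO, 106 ± 19.7 in Treg WT, 255 ± 39.4 in Tconv KO and 159 ± 89.7 in Tconv WT (SD). Both genes were lowest in Treg KO and highest in Tconv KO, with the WT groups between. Rfc3 in Tconv WT ran from 56.2 to 275, across the whole Treg range. The contrast of Treg with Tconv that passed in KO was −0.23 for Mcm4 and −0.39 for Rfc3 in WT, and the test of the difference between genotypes is the one just given, which neither passed.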

How the data were processed

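Gene expression was measured by SMART-seq2 from 10 ng of total RNA per library, per the labels' protocols, a full-length method that does not mark strand. The authors deposited 1 normalised signal per gene and library, which the values show to be a read count divided by a library factor, plus 1. Per the submitters' processing notes, the software was kallisto 0.44, Partek 6.6, CASAVA 1.8, DESeq2 and R 3.3.1 and the build mm10, with no roles named. Which annotation was counted, and whether by strand, is not given in the sources used here. Spacing of low values gave the value of a single read, and 100% of values under 1000 reads were whole within 0.1 of a read.

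Differences were fitted on log2(value + 1) with limma 3.58.1 in R 4.3.3 (mean-variance trend, 4 group means, all 16 libraries, 2-sided p, Benjamini-Hochberg per comparison), for the 14319 genes whose value reached 10 in 3 or more libraries. The threshold was an adjusted p under 0.05. The 5 comparisons were the deletion against WT in Treg and in Tconv, Treg against Tconv within each genotype, and the difference of the 2 deletion effects. The fit was tested on simulated counts that had the same dispersion for every gene and changes only in genes of higher level. Such a test does not cover genes that lack reads in some libraries. Members, roles, 8 lists of related genes and the marker lists were chosen with earlier results of these data known. Members that passed got full statistics, or else the 3 with the smallest p in a direction; of each related list, up to 4 that passed or the 1 with the smallest p. Results of some genes of these lists are not reported here. Other members with values were chosen after those were seen. Summed levels add value − 1 over a list. Positions and exon overlaps are from GENCODE M21 on mm10. Of the 45 members, 17 have an exon overlapping another gene, 14 of them a protein coding one (Cdc45, Ercc1, Ercc2, Fancd2, Lig1, Lig3, Mcm7, Msh6, Ogg1, Rfc2, Rfc4, Rfc5, Top3b and Xrcc6), and their reads are uncertain without strand. Within groups, libraries correlated at r of 0.828 to 0.917 across genes. Alternatives changed the pseudocount, filter, scaling, test, libraries and pairing.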

Additional observations from a re-analysis of the deposited data

Results flagged for a closer look

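In groups of 4 or 5 libraries, 135 gene and group pairs were checked by Dixon's ratio. In 8 of them, 1 library stood far from the others of its group. The rate of about 1 in 20 by chance holds for normal values without ties. It does not apply where only 1 library has reads, as for Rad51b in Tconv KO and Brca1 in Tconv WT. Such a library is flagged by construction. Treg KO 1 had the lowest Mcm3 of its group, 255, against 443 to 485 in the others, and Treg KO 3 had no reads of Lig4 (listed at 1), against 31.2 to 51.6. Tconv KO 3 had the highest Rad51b, 19.9, against 1 in the other 4, and Tconv KO 4 the highest Ung, 207, against 30.6 to 47.2. Tconv WT 3 had the highest Mcm4, 760, against 568 to 578, and no reads of Lig3 (listed at 1), against 84.2 to 109. Tconv WT 2 had the highest Brca1, 37.5, against 1 in the other 3, and Tconv WT 1 the lowest Blm, 16.5, against 60.7 to 76.1.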

How the results depend on the processing

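Calls of members were recomputed with pseudocounts of 0 and 5, no filter, a filter at 50, quantile scaling, limma-voom on recovered reads, only the groups compared, a replicate block, and each library left out. Leaving out 3 libraries at once (Tconv KO 3, Tconv WT 1 and Tconv WT 3) was chosen after seeing the data. The planned edgeR and DESeq2 fits on the recovered reads were not run, and limma-voom is the one test run on those reads. For Treg KO against Treg WT the count of 0 members ranged from 0 to 1 when single libraries were left out. For Treg WT against Tconv WT the count of 1 was 0 with limma-voom, 0 with only the groups compared, 0 without the 3 libraries above, and 0 to 2 when single libraries were left out; the cause was not tested. Over all genes the same comparison gave 599 calls, against 288 with limma-voom and 161 with only the groups compared. For Treg KO against Tconv KO the count of 3 ranged from 2 to 4, and Tconv KO against Tconv WT and the difference of effects stayed at 0. Of the members given full statistics none reversed the sign of its log2 difference. Among these, 617 values kept their side of the threshold, 8 lost it and 1 gained it. Most of these members had not passed in the main fit and were picked for a small p, so keeping their side says little. All 8 losses were of Top3b in Treg WT against Tconv WT. Rad51b, Mcm4 and Rfc3 in Treg KO against Tconv KO kept their call wherever they were tested. Whether equal replicate numbers mark paired libraries could not be decided. Deviations of same-numbered libraries correlated at r from −0.037 to 0.079, and at 0.023 to 0.079 between Treg and Tconv of a genotype. Differently numbered libraries were not compared as a baseline. With the replicate block 0, 0, 1, 3 and 0 members passed in the 5 comparisons, as without it. Genes that lack reads in many libraries and spread widely within groups, such as Cdc6 and Cdc45, limit what can be seen here.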
